A study of Mus musculus with 8 samples.

Results

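Inwardly rectifying potassium (Kir) channels are described here through 5 of their genes, Kcnj1, Kcnj8, Kcnj10, Kcnj15 and Kcnj16, in whole embryonic mouse kidneys with and without Dot1l in the nephron progenitors. The members were every probe whose accession maps to one of these genes, which gave 6 probes of 27509 with a gene symbol, for 5 of 20887 named genes. The 5 were put together because of their knockout against wildtype values in these same arrays, so those values are given as a description and without a test. All 5 genes passed the filter on dim probes with 1 probe each, and the second Kcnj15 probe did not. Kcnj10 and Kcnj8 had lower values in the knockout kidneys, Kcnj15 and Kcnj16 had higher ones, and for Kcnj1 the groups overlapped.

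A Kir channel is a ring of subunits that passes potassium more easily into the cell than out of it, and so holds the resting voltage of the cell near the potassium equilibrium. In kidney tubules these channels return to the blood or the tubule fluid the potassium that the sodium pump and the cotransporters bring into the cell. Nephron epithelium, from podocyte to distal tubule, descends from Six2-positive progenitors, whereas the collecting duct grows out of the ureteric bud and the vessel walls come from stromal and other precursors.

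The samples were kidney pairs of C57BL/6 embryos at embryonic day 16.5, 4 wildtype controls (WT) and 4 labelled DOT1-null, with the knockout in Six2-positive nephron progenitor cells (KO). What removed the gene, and from which Cre line, is not given in the sources used here, and the kidneys keep every cell outside the progenitor lineage with its Dot1l. Each array carried a sample in Cy5 (red) and RNA of the WT1 kidneys in Cy3 (green), so each value is the log2 ratio of a sample over that reference, and on the WT1 array both colours carried the same RNA. The design text calls the samples of each group biological replicates and gives no litters. The p-values measure the spread between the arrays, which holds differences between kidney pairs and errors of the measurement. On WT1, a difference between the colours comes from the measurement.

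Some properties of the arrays touch every result. The red negative-control spots had a median of 1361 scanner units on WT1 and 478.2 on KO1, against 58 to 61 on the other 6 arrays, and the results below are therefore also given without WT1 and KO1. All WT arrays lay in one row of the slide and all KO arrays in the other, so row and group cannot be told apart. The Y-linked gene Ddx3y had log2 ratios of 2.31 to 3.19 on the KO arrays and 3.29 on WT2, and of -0.11 to 0.08 on the other 3 WT arrays, so the sexes were not balanced. The Dot1l probe differed by 0.03 ± 0.08 (SE, n = 4 per group; limma adjusted p = 0.924); where it lies relative to the deleted part is not known here, so it does not check the labels. All 6 kidney markers looked for (Pax2, Pax8, Wt1, Six2, Lhx1 and Ret) were well above background on at least 4 arrays, and none of 3 adrenal markers was. Of these kidney markers 2 fell in KO, Lhx1, a homeobox gene of the forming nephron (-0.86 ± 0.15, SE; limma adjusted p = 0.0145), and Wt1, a zinc finger gene of progenitors and podocytes (-0.40 ± 0.09, SE; adjusted p = 0.0354). The 3 macrophage markers looked for rose in KO, among them Mrc1 by 0.56 ± 0.08 (SE, limma adjusted p = 0.00554) and Csf1r by 0.47 ± 0.11 (SE, adjusted p = 0.0482). Over all genes tested 1.61% passed as higher and 0.544% as lower. These marker calls were not followed through the other processing choices. The part of either marker set in the values below was not tested. In whole tissue, fewer cells of a type and less RNA per cell cannot be told apart.

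The windows upstream of the genes are shown for the 3 members that stand on opposite sides, Kcnj10 on one and Kcnj15 and Kcnj16 on the other. Each line holds the 250 bases before an annotated start, 5′ to 3′ on the strand of the gene, from RefSeq on GRCm38.p6; the array design names another build, mm9, so no probe was placed on these coordinates. Capitals mark a match to the exact letters of one of 3 motifs, searched on both strands, and lines without capitals hold none. Kcnj10 lies at chr1:172340960-172341209, Kcnj15 at chr16:95257308-95257557 and an upstream and a downstream one of 4 annotated Kcnj16 starts at chr11:110967783-110968032 and chr11:111019335-111019584, all on the plus strand.
Kcnj10: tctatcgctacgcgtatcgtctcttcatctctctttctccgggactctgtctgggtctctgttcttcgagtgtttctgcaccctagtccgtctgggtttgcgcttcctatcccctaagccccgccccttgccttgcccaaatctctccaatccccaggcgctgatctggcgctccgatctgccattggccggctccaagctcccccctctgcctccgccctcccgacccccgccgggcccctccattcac
Kcnj15: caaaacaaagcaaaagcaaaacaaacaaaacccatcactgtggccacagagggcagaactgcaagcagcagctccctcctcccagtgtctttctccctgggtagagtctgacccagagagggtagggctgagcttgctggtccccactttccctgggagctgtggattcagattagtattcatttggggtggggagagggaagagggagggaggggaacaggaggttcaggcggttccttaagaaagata
Kcnj16 upstream start: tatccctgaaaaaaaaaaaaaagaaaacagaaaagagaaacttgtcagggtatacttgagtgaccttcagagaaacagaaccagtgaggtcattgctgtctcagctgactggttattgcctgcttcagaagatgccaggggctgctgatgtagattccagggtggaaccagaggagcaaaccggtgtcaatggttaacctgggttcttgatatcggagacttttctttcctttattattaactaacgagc
Kcnj16 downstream start: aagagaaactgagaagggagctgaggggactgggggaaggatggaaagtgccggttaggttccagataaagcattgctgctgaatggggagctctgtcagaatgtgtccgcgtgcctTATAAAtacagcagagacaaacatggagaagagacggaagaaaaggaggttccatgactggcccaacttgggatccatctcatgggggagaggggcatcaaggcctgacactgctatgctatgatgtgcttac
The match in the window of the downstream Kcnj16 start is TATAAA, the letters of the TATA box motif, and begins 133 bases before that start. Of 32817 such windows of all genes, 12.4% hold TATAAA on either strand. Of the oestrogen-related receptor element only the spelling TCAAGGTCA was searched (0.387% of windows), and of the HNF4 element only CAAAGTCCA (0.384%). Neither spelling had a match in any window of the 5 genes, and other spellings of these elements may be present. The windows of Kcnj1 and Kcnj8 held none of the 3 searched spellings. The Kcnj10 window was 62.0% G or C, that of Kcnj15 53.2% and that of the upstream Kcnj16 start 42.8%, where the median of all windows was 52.4%. These letters describe the windows only.

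Kcnj16 (probe A_55_P2156304) encodes Kir5.1, a subunit that carries current in the kidney mainly in mixed channels with the Kir4 subunits. Its log2 ratios were -0.42, -0.40, -0.11 and -0.61 in WT1 to WT4 and 0.07, 0.16, 0.63 and 0.26 in KO1 to KO4. All KO arrays were above all WT arrays, with KO3 the highest of the KO arrays and WT4 the lowest of the WT arrays. The means were -0.38 ± 0.21 (SD, n = 4) in WT and 0.28 ± 0.25 (SD, n = 4) in KO, a difference of 0.67 ± 0.16 (SE), or 1.59-fold higher. The difference was 0.73 ± 0.20 (SE, n = 3 per group) without WT1 and KO1, and the groups again did not overlap. In the uncorrected scans the red Kcnj16 signal was 1672.5 to 2081 units in WT2 to WT4 and 2026.5 to 2790 in KO2 to KO4, ranges that overlap before normalization.

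Kcnj15 (probes A_55_P2164090 and A_52_P101303, the brighter first) encodes Kir4.2, a Kir4 subunit of the proximal tubule that can join with Kir5.1. For the brighter probe the WT1, WT2, WT3 and WT4 values were -0.07, -0.38, -0.37 and -0.69, and the KO1, KO2, KO3 and KO4 values -0.01, 0.11, 0.50 and 0.33, as log2 ratios. The groups did not overlap, but only just, since KO1 lay 0.06 above WT1, and KO3 and WT4 were again the extremes. The means were -0.38 ± 0.25 (SD, n = 4) in WT and 0.23 ± 0.23 (SD, n = 4) in KO, a difference of 0.61 ± 0.17 (SE), or 1.53-fold higher. It was 0.79 ± 0.15 (SE, n = 3 per group) without WT1 and KO1. The second Kcnj15 probe was well above background in red on WT1 and KO1 alone. On the other 6 arrays its red signal was 63 to 74 units, close to the negative controls, so it gives no fold; its log2 ratios ran from -0.16 to 0.04 in WT and from -0.03 to 0.17 in KO.

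The segment in which Kir4.2 is known, the proximal tubule, was read through 5 markers, Lrp2, Cubn, Slc34a1, Slc27a2 and Aqp1. All 5 were well above background on at least 4 arrays and none passed the test (limma), the lowest p being that of the fatty acid transporter gene Slc27a2 (0.77 ± 0.19, SE; adjusted p = 0.0659), and the KO mean was the higher one in all 5. WT4 was the lowest WT array in 5 of 5 and KO3 the highest KO array in 5 of 5, as in Kcnj15, Kcnj16 and Kcnj1. Over all genes tested WT4 was the lowest WT array in 18.4% and KO3 the highest KO array in 31.1%, and KO3 was also highest in 13 of 18 mural cell genes and 12 of 16 thick ascending limb genes. The median of the 5 ran from -0.95 to -0.05 in WT and from -0.10 to 0.65 in KO. Their part in the Kcnj15 and Kcnj16 values was not tested.

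Kcnj10 (probe A_55_P2027083) encodes Kir4.1, the partner of Kir5.1 in the basolateral membrane of the distal convoluted tubule and its neighbours, where the mixed channel sets the voltage that drives salt uptake; in humans its loss causes a salt-wasting syndrome with seizures and deafness. Its log2 ratios were -0.05, -0.52, -0.03 and -0.37 in WT1 to WT4 and -0.57, -1.002, -0.83 and -0.76 in KO1 to KO4. Every KO array was below every WT array, although KO1 and WT2 lay only 0.06 apart. The means were -0.24 ± 0.24 (SD, n = 4) in WT and -0.79 ± 0.18 (SD, n = 4) in KO, a difference of -0.55 ± 0.15 (SE), or 1.47-fold lower. With WT1 and KO1 left out it was -0.56 ± 0.16 (SE, n = 3 per group). Against WT2, the single WT array with the Ddx3y signal of the KO arrays, the KO mean was lower by 0.27, since WT2 itself lay at -0.52. The red Kcnj10 signal was 836 to 1249 units in WT2 to WT4 and 429 to 711 in KO2 to KO4.

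Kcnj8 (probe A_52_P225898) encodes Kir6.1, the pore of the ATP-sensitive potassium channel of vascular smooth muscle and pericytes, where it needs the sulfonylurea receptor SUR2, the product of Abcc9. Its log2 ratios were 0.01, -0.13, -0.08 and -0.02 in WT1 to WT4 and -0.39, -0.48, -0.42 and -0.33 in KO1 to KO4. The arrays of each group lay close together and the groups were 0.20 apart at their nearest, the widest gap among the 5 genes. The means were -0.06 ± 0.06 (SD, n = 4) in WT and -0.41 ± 0.06 (SD, n = 4) in KO, a difference of -0.35 ± 0.04 (SE), or 1.28-fold lower. The probe is dim: on WT1 it was not well above background in either colour, and its red signal was 264 to 476 units in WT2 to WT4 and 186 to 286.5 in KO2 to KO4. Those red ranges overlap before normalization. The difference without WT1 and KO1 was -0.33 ± 0.05 (SE, n = 3 per group).

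Kcnj1 (probe A_52_P499907) encodes Kir1.1 (ROMK), the apical channel that lets potassium out into the fluid of the thick ascending limb and collecting duct, and whose loss in humans causes a form of Bartter syndrome. Its log2 ratios were -0.22, -0.81, -0.43 and -1.05 in WT1 to WT4 and -0.98, -0.75, -0.28 and -0.87 in KO1 to KO4. The groups overlapped, with WT1, KO3 and WT3 the highest arrays and WT4 the lowest. The means were -0.63 ± 0.37 (SD, n = 4) in WT and -0.72 ± 0.31 (SD, n = 4) in KO, a difference of -0.09 ± 0.24 (SE). Leaving out WT1 and KO1 gave a difference of 0.13 ± 0.25 (SE, n = 3 per group), so its sign depended on those arrays.

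**Figure D1:**
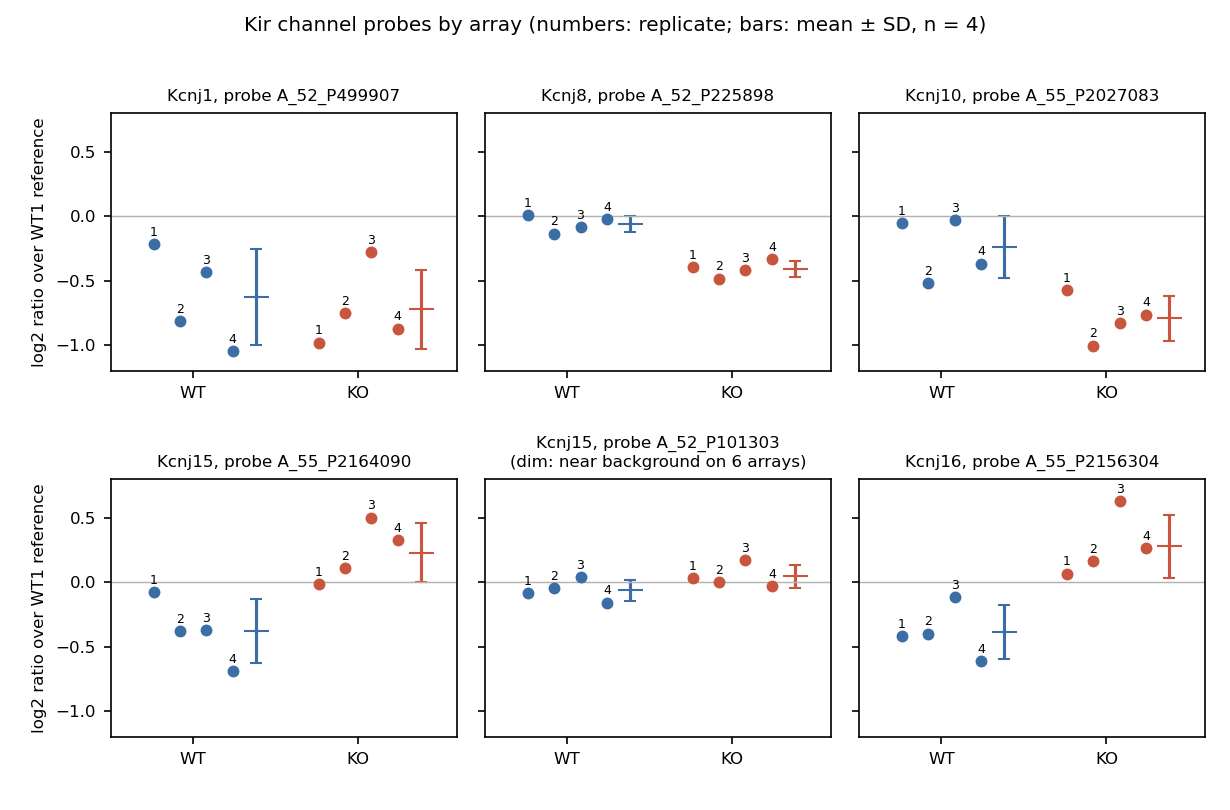
Log2 ratio over the WT1 reference (vertical axis) for the 6 Kir probes in the 4 WT (blue) and 4 KO (red) arrays; numbers are replicates and bars are mean ± SD. Kcnj8 and Kcnj10 are lower and Kcnj15 (bright probe) and Kcnj16 higher on every KO array than on any WT array, while Kcnj1 overlaps and the dim Kcnj15 probe stays between -0.16 and 0.17.

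Thus in 4 of the 5 genes the groups did not overlap, 2 with KO above and 2 with KO below. Over all 13982 genes tested the groups did not overlap in 9.28%, 6.82% with KO above and 2.46% with KO below; because the members were picked on this contrast, nothing is read from the comparison.

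The members also differed in how they moved within an array. The Kcnj15 log2 ratio minus that of Kcnj16 averaged 0.01 ± 0.25 (SD, n = 4) in WT and -0.05 ± 0.08 (SD, n = 4) in KO. In WT this difference ran from -0.26 on WT3 to 0.34 on WT1, and in KO from -0.13 to 0.07. The Kcnj10 log2 ratio minus that of Kcnj16 averaged 0.15 ± 0.21 (SD) in WT and -1.07 ± 0.34 (SD) in KO. Both log2 ratios are taken over the WT1 reference, so their difference does not give the amounts of Kir4.1 and Kir5.1 relative to each other. This difference was -0.64, -1.17, -1.46 and -1.03 in KO1 to KO4 and between -0.12 and 0.36 in WT. It was lower on each KO array than on any WT array, which follows from the separate values of the pair. Kcnj10 minus Kcnj8 did not part the groups: Kcnj8 exceeded Kcnj10 by 0.18 ± 0.21 (SD) in WT and by 0.38 ± 0.15 (SD) in KO.

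The green channel held the same WT1 RNA on every array and is the denominator of each log2 ratio, so its values entered the choice of the genes and are given without a test. In the uncorrected scans of the 6 arrays other than WT1 and KO1 the green Kcnj16 signal was 988 to 1057.5 units in WT and 772 to 792.5 in KO. Green Kcnj15 was 381 to 422.5 units in WT and 306.5 to 339.5 in KO, and green Kcnj10 was 517 to 578 and 427 to 460. Green Kcnj1 was 1256.5 to 1460 units in WT and 1019 to 1192.5 in KO. For Kcnj16, Kcnj15, Kcnj10 and Kcnj1 the green ranges did not overlap, with the KO arrays lower. The share of all genes with such a gap was not counted, so nothing is read from it. The green median of all probes was 30, 29 and 30.5 units on WT2, WT3 and WT4, and 33 on each of KO2, KO3 and KO4. The green Kcnj8 ranges overlapped, with 133 to 172 units in WT and 132 to 141 in KO. After quantile normalization over all genes, and without WT1 and KO1, the green differences of the 5 genes were between -0.08 (Kcnj16) and 0.00 (Kcnj8) in log2 units. The WT1 array stood apart: its normalized green Kcnj16 value was 6.89, against 9.94 to 10.14 on the other 7 arrays, and that of Kcnj1 was 8.34, against 10.31 to 10.58.

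**Figure D2:**
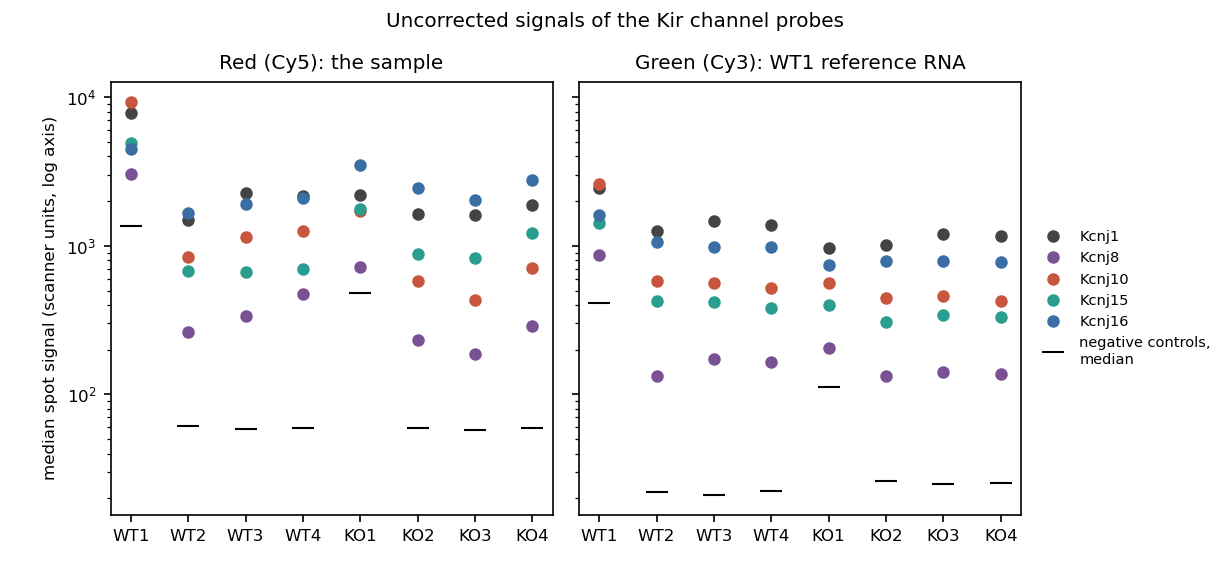
Uncorrected median spot signals in scanner units (log axis) of the 5 Kir probes that passed the filter, by array, in red (the sample) and green (WT1 reference RNA on every array); black dashes are the negative-control medians. WT1 and KO1 are bright in the controls too (1361 and 478.2 units in red), and on the other 6 arrays red Kcnj10 is 836 to 1249 units in WT and 429 to 711 in KO.

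The rest of the Kir family was examined next, with both sulfonylurea receptor genes, as 12 genes of which 7 passed the filter on dim probes. Kcnj2, Kcnj3, Kcnj6, Kcnj9 and Kcnj11 were well above background on at most 2 arrays by any probe, and no value is given for them. None of the 7 passed over all genes (limma with Benjamini-Hochberg adjustment; 1 at an unadjusted p under 0.05, which 14.5% of all genes reached), where 2.15% of all genes did, 1.61% higher and 0.544% lower. The median difference was 0.11, against 0.03 over all genes. The heart and adrenal channel gene Kcnj5 differed by 0.12 ± 0.11 (SE), Kcnj4 by 0.17 ± 0.10, Kcnj14 by 0.11 ± 0.11, Kcnj13 by 0.09 ± 0.08 and Kcnj12 by 0.05. Abcc8, which encodes the SUR1 receptor of pancreatic beta cells, differed by 0.13 ± 0.10. Kcnj12 was well above background in red on 4 arrays (1 WT, 3 KO) and Kcnj13 on 5 (3 WT, 2 KO). Both are dim, so their small differences say little.

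Abcc9, the partner gene of Kcnj8 and its next neighbour on chromosome 6 in RefSeq order, had the lowest p. Its log2 ratios were 0.10, 0.07, 0.05 and 0.17 in WT1 to WT4 and -0.34, -0.19, -0.18 and -0.24 in KO1 to KO4, without overlap. Leaving out WT1 and KO1 gave a difference of -0.30 (limma adjusted p = 0.125). With all 8 arrays it was -0.34 ± 0.08 (SE, n = 4 per group, limma adjusted p = 0.0509), just outside the threshold of 0.05. Other filters moved it past the threshold, no filter at all (adjusted p = 0.0434) and a filter asking for all 8 arrays (adjusted p = 0.0477), and over the other alternatives the adjusted p was 0.0509 to 1. With the red channel alone the sign turned to 0.41, and with the red channel alone and without WT1 and KO1 it was -0.22. The Kcnj8 log2 ratio minus that of Abcc9 averaged -0.15 ± 0.05 (SD, n = 4) in WT and -0.17 ± 0.11 (SD, n = 4) in KO.

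Markers of mural cells, the pericytes and smooth muscle in which the Kir6.1 channel works, were read beside Kcnj8. Of 18 measured none passed (limma; 1 at an unadjusted p under 0.05), the median difference was 0.13, and the array medians of the list ran from -0.07 to 0.08 in WT and from -0.16 to 0.28 in KO. The pericyte genes Rgs5 (-0.18), Pdgfrb (-0.02), Cspg4 (-0.13), Cox4i2 (-0.14), Ndufa4l2 (-0.13), Notch3 (0.28) and Higd1b (0.15) had differences of both signs. The muscle genes Acta2 (0.12), Tagln (0.24), Cnn1 (0.17), Myh11 (0.16) and Des (0.17) had higher means in KO. Akr1b7, an aldo-keto reductase of renin cells, had the lowest p (-0.51 ± 0.13, SE; adjusted p = 0.0614) and passed without WT1 and KO1 (-0.66, adjusted p = 0.0306), and Myl9, a smooth muscle myosin light chain gene, differed by 0.18 ± 0.08. In the list 11 genes had a higher mean in KO and 7 a lower one; Akr1b7 also passed without WT1 alone. Their part in the Kcnj8 value was not tested.

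Genes of the distal convoluted tubule, where the Kir4.1 and Kir5.1 channel works, were read beside Kcnj10 and Kcnj16. Of 21 measured 1 fell and none rose (4.76%, against 2.15% of all genes), with a median of 0.06. It was Emx1, a homeobox gene of the distal tubule, with a difference of -0.92 ± 0.12 (SE; limma adjusted p = 0.0032), which was -0.97 without WT1 and KO1. With the replicate number as a block, a pairing chosen from these same data, 2 passed, Emx1 and Slc12a3. Slc12a3 encodes the thiazide-sensitive sodium chloride cotransporter of this segment (-0.88, limma adjusted p = 0.0588 without and 0.00355 with the block). Slc12a3 also passed without KO1 alone. At an unadjusted p under 0.05 (limma) 4 genes of the list were higher and 2 lower, where 14.5% of all genes reached that p. The KO mean was the higher one in 14 of the 21 genes and the lower one in 7. The kinase gene Wnk4 differed by -0.21 ± 0.12, the calcium binding protein gene Calb1 by 0.22 ± 0.09, Pvalb by 0.05 and Atp1b1, which encodes a sodium pump subunit, by 0.06.

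Genes of the thick ascending limb, where Kcnj1 is apical, came next. Of 16 measured none passed (limma; 8 at an unadjusted p under 0.05, 2 higher and 6 lower, where 14.5% of all genes reached that p), with a median of -0.16. Cldn16, the claudin of magnesium and calcium uptake, differed by -0.57 ± 0.14 (SE; adjusted p = 0.0539), and Cdh16, a cadherin of kidney tubules, by 0.36 ± 0.10 (adjusted p = 0.0745). With the replicate block 3 passed, 2 lower and 1 higher; among them Cldn16 fell (adjusted p = 0.0216), and Umod, which encodes uromodulin, rose (0.75, adjusted p = 0.0284). None passed without WT1 and KO1, where with the block Umod and Cdh16 did; Umod passed without KO1 alone and Cldn16 without WT4 alone. Slc12a1, the cotransporter that depends on Kir1.1 for its potassium, differed by 0.06 ± 0.09 (SE).

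The 18 genes of the collecting duct principal cell, the other site of Kcnj1, had a median of 0.13. Of these 2 rose and none fell (11.1%, against 2.15% of all genes). They were Fxyd4, a regulator of the sodium pump (0.79 ± 0.16, SE; limma adjusted p = 0.0268), and Krt19, a keratin of duct epithelium (0.54 ± 0.12, adjusted p = 0.0386). Both calls hung on single arrays: no gene of the list passed when any one of WT1, WT2, WT4, KO2, KO3 or KO4 was left out. With WT1 and KO1 both left out Krt19 passed (0.65, adjusted p = 0.0271) and Fxyd4 did not (0.91, adjusted p = 0.0617). With the replicate block on those 6 arrays 4 passed, Fxyd4 (adjusted p = 0.00413), Krt19 (adjusted p = 0.0153), the water channel gene Aqp4 (adjusted p = 0.00949) and the keratin gene Krt18 (adjusted p = 0.0407), all higher. The water channel gene Aqp2 differed by 0.37 ± 0.38 and the sodium channel subunit gene Scnn1a by -0.06 ± 0.10. Of the WT arrays, WT4 was lowest in 12 of the 18 genes, and KO3 topped the KO arrays in 11, where 18.4% and 31.1% of all genes did so; WT4 was also lowest in 9 of the 16 thick ascending limb genes. Their part in the result was not tested.

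Of 15 other kidney potassium channel genes none passed (limma; 4 at an unadjusted p under 0.05, all higher, beside the 14.5% of all genes), with a median of 0.13. With the replicate block 2 rose, among them Kcnk1, a potassium leak channel gene (0.40, adjusted p = 0.0463 with the block and 0.139 without it). Kcnq1, a voltage-gated channel gene of the proximal tubule, differed by 0.38 ± 0.13 (adjusted p = 0.169), and Kcnma1, the large calcium-activated channel gene of the distal nephron, by 0.21 ± 0.12.

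Glia, which express Kir4.1 in nerve tissue, were read through 12 measured nerve and glia genes. Of these 2 rose and 1 fell (25%, against 2.15% of all genes), with a median of 0.04. Elavl4, a neuronal RNA-binding protein gene, fell (-0.97 ± 0.11, SE; limma adjusted p = 0.00156), Fabp7, a fatty acid binding protein gene of glial precursors, rose (0.60 ± 0.11, adjusted p = 0.019), and so did Phox2a, a factor of autonomic neurons (0.56 ± 0.12, adjusted p = 0.03). Foxd3, Gfap and Cdh19 of glia, and Dbh and Tubb3 of neurons, were well above background on at most 2 arrays, and Sox10 differed by 0.20 ± 0.15. The array medians of the list ran from 0.02 to 0.11 in WT and from 0.02 to 0.21 in KO. These 3 passed again without WT1 and KO1, but only Elavl4 passed when WT1, KO2 or KO4 was left out singly, and Phox2a was also lost without WT2, WT3 or WT4. The part of nerve tissue in the Kcnj10 value was not tested.

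**Figure D3:**
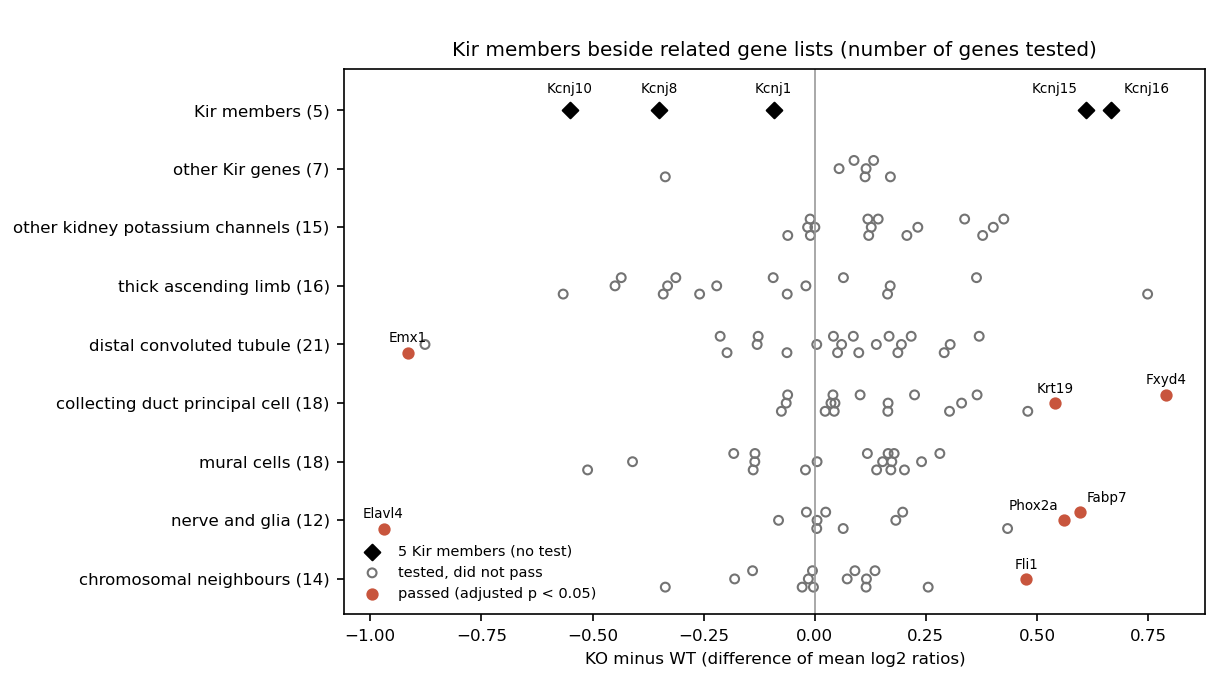
Difference of mean log2 ratios, KO minus WT (horizontal axis), for the 5 Kir members (black diamonds, no test) and for each measured gene of 8 related lists; filled red circles passed an adjusted p of 0.05 in limma and open circles did not. The members reach from -0.55 (Kcnj10) to 0.67 (Kcnj16). In the other Kir list of 7 genes the sulfonylurea receptor gene Abcc9 lies at -0.34, and the Kir genes lie between 0.05 (Kcnj12) and 0.17 (Kcnj4). The Kcnj12 and Kcnj13 probes are dim.

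Genes beside the members on their chromosomes were also read. Of the 5 RefSeq genes on each side of each member, 14 were measured, with a median of 0.03. Among them 1 rose and none fell (7.14%, against 2.15% of all genes). It was Fli1, an endothelial transcription factor gene next to Kcnj1 (0.48 ± 0.09, SE; limma adjusted p = 0.0202), which did not pass without WT1 and KO1 (adjusted p = 0.0818, and 0.0411 with the replicate block there) or with WT1, WT2, WT4 or KO4 left out singly. The nearest measured gene on the other side of Kcnj1 was Kcnj5, given above. Around Kcnj10 lay Igsf8 (0.26 ± 0.16) and Pigm (0.09 ± 0.13), around Kcnj15 Dyrk1a (-0.02 ± 0.12) and Erg (-0.01 ± 0.09), around Kcnj16 Map2k6 (0.00 ± 0.13) and Sox9 (0.24 ± 0.08), and beside Kcnj8, across from Abcc9, Ldhb (0.14 ± 0.10). None of these passed. Dyrk1a and Sox9 lie beyond the 5 nearest genes. The Kir genes that neighbour the members, Kcnj9 beside Kcnj10, Kcnj6 beside Kcnj15 and Kcnj2 beside Kcnj16, were well above background on at most 2 arrays.

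The genes whose values over the 8 arrays were most like each member were found among 13959 genes by the mean absolute difference of log2 ratios, after centring each gene on its own mean. Kcnj10 was nearest to Esrrb, an oestrogen-related receptor gene (0.11), then to Irx2, a homeobox gene of the loop of Henle (0.11), and to Pgam2, a glycolytic enzyme gene (0.12). Kcnj15 was nearest to Afm, which encodes the vitamin E carrier afamin (0.05), then to F10, the gene of coagulation factor X (0.07), and to Slc17a3, an organic anion transporter gene of the proximal tubule (0.07). Kcnj16 was nearest to Tesc (0.06), Smoc2 (0.07) and again Afm (0.08). Kcnj8 was nearest to Rnf113a1 (0.03), Camkv (0.04) and Dph5 (0.05), and Kcnj1 to Tmco4 (0.10), the endosomal chloride transporter gene Clcn5 (0.10) and the kinase gene Sik1 (0.11).

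Among the members, Kcnj15 and Kcnj16 were the most alike by this measure (0.12), followed by Kcnj8 and Kcnj10 (0.17), and Kcnj10 and Kcnj16 were the least alike (0.61). The Afm log2 ratios were -0.10, -0.30, -0.26 and -0.57 in WT1 to WT4 and 0.11, 0.21, 0.66 and 0.34 in KO1 to KO4. They follow the WT4 low and KO3 high of Kcnj15 and Kcnj16. Esrrb had -0.05, -0.43, 0.13 and -0.38 in WT1 to WT4 and -0.64, -0.94, -0.48 and -0.88 in KO1 to KO4. As in Kcnj10, WT1 and WT3 were the higher WT arrays and KO2 the lowest KO array. These genes were chosen for their likeness, so they carry no test.

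**Figure D4:**
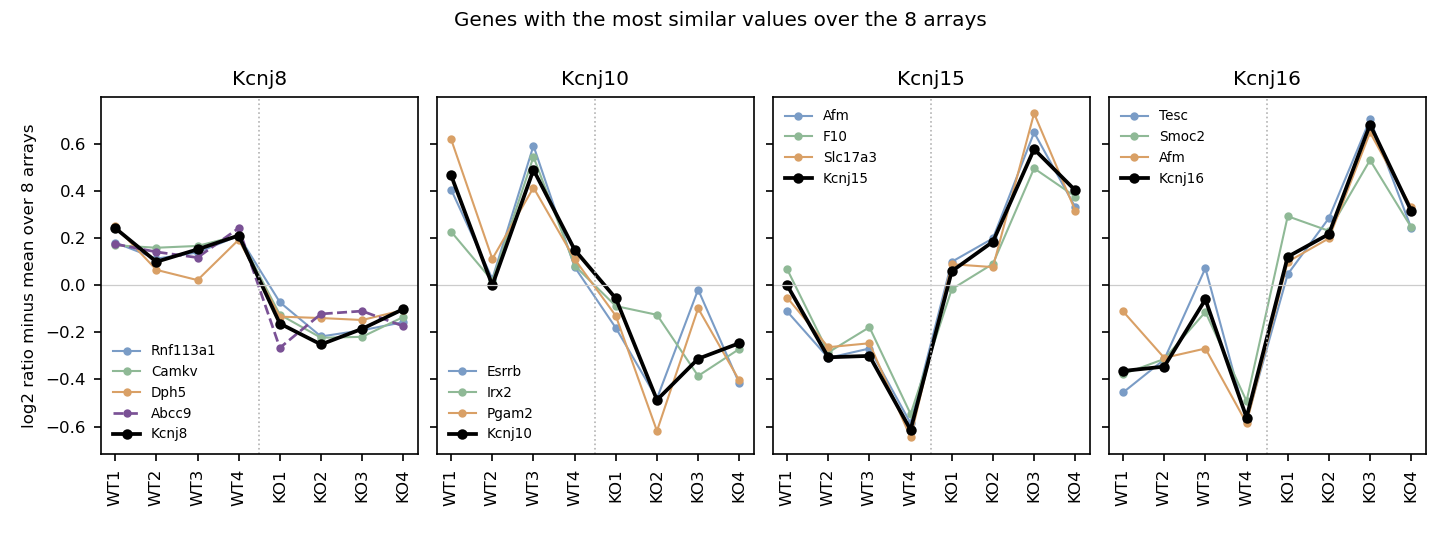
Log2 ratio of each gene minus its mean over the 8 arrays (vertical axis), by array, for 4 Kir genes (black) and the 3 genes most like each, with Abcc9 (dashed) beside Kcnj8. Kcnj15 and Kcnj16 share low values on WT4 and high values on KO3, while Kcnj10 is high on WT1 and WT3 and Kcnj8 is nearly level within each group.

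The differences of the members were last compared over the processing choices. With the scanner software's own ratios Kcnj10 differed by -0.73, Kcnj8 by -0.54, Kcnj15 by 0.57 and Kcnj16 by 0.71. With sex as a model term, which sets the KO arrays against WT2 alone, the differences were -0.27 for Kcnj10, -0.27 for Kcnj8, 0.61 for Kcnj15 and 0.68 for Kcnj16. Leaving out any 1 array gave -0.64 to -0.48 for Kcnj10, -0.38 to -0.33 for Kcnj8, 0.51 to 0.71 for Kcnj15 and 0.55 to 0.76 for Kcnj16. The sign of these 4 genes was the same under every choice run, and for those whose groups do not overlap this is fixed in advance wherever an array is left out. Kcnj1 ran from -0.24 to 0.04 with 1 array left out.

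**Figure D5:**
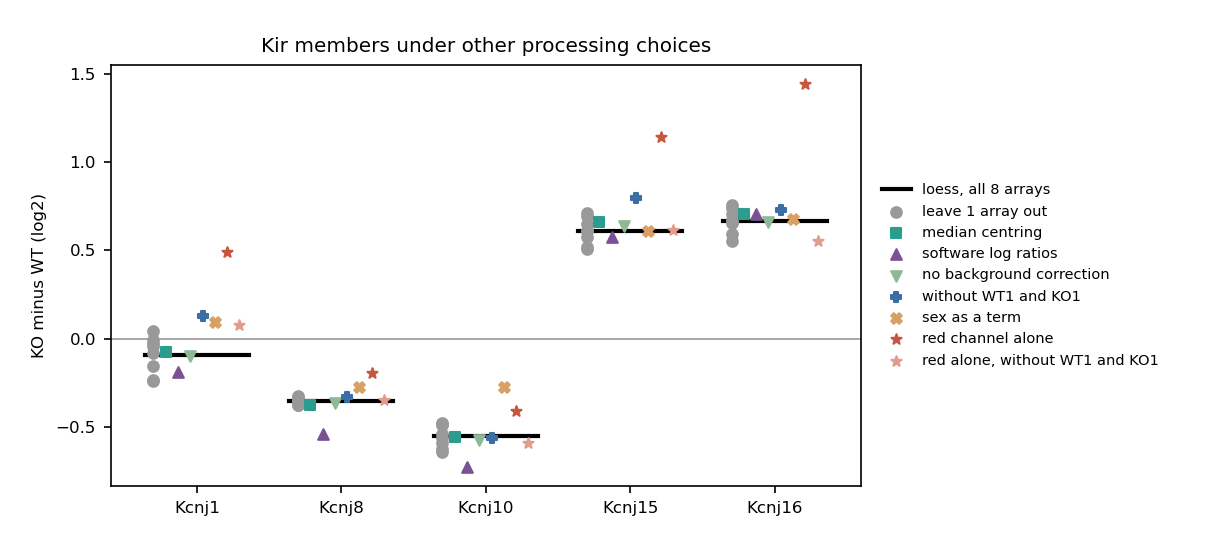
KO minus WT difference in log2 ratio (vertical axis) of the 5 Kir genes; black bars are the loess values with all 8 arrays and symbols are other processing choices. Kcnj8 and Kcnj10 stay below 0 and Kcnj15 and Kcnj16 above 0 throughout, Kcnj1 lies on both sides, and the red channel alone gives 1.14 for Kcnj15 and 1.44 for Kcnj16.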

How the data were processed

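Per the labels' protocols, RNA of 8 kidney pairs (4 WT, 4 KO) was amplified, labelled with Cy3 or Cy5 and hybridised to 8 arrays of 1 slide. Per the file headers, the deposited files are output of Agilent Feature Extraction 10.7.3.1, with unnormalized median spot and background intensity and flags of 0 or 1. Per the file headers, the software had also subtracted background and balanced the dyes for its deposited log10 ratios, and the series' deposited value table held these same log10 ratios, with a median of 0 on each array.

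In R 4.3.3 with limma 3.58.1 the background was corrected by normexp (offset 50), then each array was normalized by loess; 1765 outlier readings (0.372%) were left out. Probes were named through the RefSeq accessions of GRCm38.p6 (27509 of 29150 probes with such an accession), kept if well above background in red on at least 4 of 8 arrays, and the brightest stood for its gene (13982 genes). KO and WT were compared with lmFit and eBayes and Benjamini-Hochberg adjustment at 0.05; 301 genes passed, 225 higher and 76 lower (73 and 50 with the software's ratios). The fit was tested on simulated data. The SE of a member is that of a difference of group means without pooling; elsewhere it is the moderated SE of limma. Precision is limited by the number of arrays.

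The members and all gene lists were chosen with earlier results of these data known. The rule for named genes took every member probe, the other Kir and sulfonylurea receptor genes, up to 4 list genes that passed (or 2 with the lowest p), the nearest measured neighbours and the 3 most alike genes; other genes named were chosen after their values were seen. Some genes of the lists are not reported here. Same-numbered WT and KO arrays deviated together (r of 0.14, 0.37, 0.26 and 0.30 over 13960 genes for numbers 1 to 4; WT4 correlated best with KO1, the others with their own number), so the numbers were taken as pairs from the data; the block is given where it changes a call. Alternatives were other normalizations, background corrections, filters and probes, the replicate block, sex, and arrays left out.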

Additional observations from a re-analysis of the deposited data

Results flagged for a closer look

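Of 108 sets of 4 arrays looked at for a single distant array, 2 had one, where chance marks about 1 in 20. Pigm, the neighbour of Kcnj10, was at -0.44 on WT1 and at 0.06 to 0.15 on the other WT arrays. Sik1, one of the genes most like Kcnj1, was at 0.34 on KO3 and at -0.29 to -0.28 on the other KO arrays. No Kir probe had such an array in either group.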

How the results depend on the processing

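The direction of Kcnj8, Kcnj10, Kcnj15 and Kcnj16 held under every choice run. Kcnj8 moved to -0.54 with the software's ratios, -0.51 with these and without WT1 and KO1, -0.20 with the red channel alone and -0.27 with sex as a term; Kcnj10 moved to -0.27 with sex. Kcnj15 and Kcnj16 moved to 1.14 and 1.44 with the red channel alone, where the median of all genes moved to 0.22. Kcnj1 changed sign, to 0.49 (red channel alone), 0.13 (without WT1 and KO1, with or without the replicate block), 0.094 (sex), 0.077 (red channel without WT1 and KO1) and 0.082 (software's ratios without them), and ran from -0.24 to 0.044 (without WT1) with 1 array left out; the cause was not tested. With 1 array left out Kcnj8 ran from -0.38 to -0.33, Kcnj10 from -0.64 to -0.48, Kcnj15 from 0.51 to 0.71 and Kcnj16 from 0.55 to 0.76.

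Of all genes, 301 passed; with the replicate block it was 556 (520 without WT1 and KO1). The count was 123 with the software's ratios (73 higher, 50 lower; 65 without WT1 and KO1), 12 with sex, 1 with the red channel alone (143 without WT1 and KO1) and 0 with median centring (178 at an unadjusted p under 0.05 in limma), and 83 (without KO4) to 345 (without KO1) with 1 array left out. It was 129 without WT4, 141 without KO2, 150 without WT2, 187 without WT1 and 198 without KO3. Without WT1 and KO1 it was 246, and 188 of the 301 passed again.

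List counts fell to 0 for the distal convoluted tubule, collecting duct, nerve and neighbour lists with median centring, the red channel alone or sex as a term. The software's ratios gave 0 for the collecting duct and neighbour lists, and without WT1 and KO1 also 0 for the distal list. The collecting duct list had 1 without WT1 and KO1, with all channels or red alone, and 4 with the block there; the neighbour list had 0 without WT1 and KO1 and 2 without the filter. Nerve genes had 0 when probes had to be well above background on all 8 arrays. The other Kir list had 1 (Abcc9) there and without the filter. With the block, 3 thick ascending limb genes passed (2 without WT1 and KO1), and 2 of the distal and 2 of the other potassium channel genes in either case; with all arrays the block changed no other list call beyond adding Stmn2 to the nerve list, and without WT1 and KO1 it also added Fli1 to the neighbour list. The mural list had 1 without WT1 and KO1 in each of 3 fits. With 1 array left out the counts were 0 to 1 (thick ascending limb, mural, neighbours), 1 to 2 (distal), 0 to 2 (collecting duct), 1 to 3 (nerve) and 0 (other Kir and other potassium channels). Among 46 other genes named, 853 of 991 values stayed on their side of the threshold, 107 no longer passed and 31 newly passed. No dye swap was made, and signals near background limit the dim Kcnj15 probe and the Kcnj8 probe on WT1.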
